A study of Mus musculus with 3 samples.

Results

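Monocytes and macrophages derived from them were examined in a single-cell RNA sequencing experiment on mouse brain. Every mouse was an APOE knockout. Sorting kept CD45int CD11b+ cells, mostly microglia, from the brain at day 4 of a sham procedure or of NMOSD (neuromyelitis optica spectrum disorder). Sham + PBS formed 1 group, NMOSD + control peptide another, and NMOSD + APOE130-149, whose peptide takes its name from apolipoprotein E, the last of 3. Each was 1 library from 4 pooled mice. The sources used here do not give the knockout allele, the way NMOSD was induced, or the age, sex and strain of the mice.

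A barcode was taken as a member when it passed a filter of at least 500 detected genes and at most 10% mitochondrially encoded unique molecular identifiers (UMIs, counts of single RNA molecules) and met 6 further criteria. It needed at least 3 UMIs of Ccr2, Ly6c2 and Plac8 together and at least 5 UMIs of Lyz2. It also needed P2ry12, a gene of microglia, under 500 CPM (the UMIs of a gene scaled to a fixed total, here within the cell), S100a8 and S100a9 under 1% of UMIs, no UMI of the T-cell receptor genes Cd3d, Cd3e and Cd3g, and fewer than 6 UMIs of Mrc1, Pf4, Cd163 and Ms4a7, genes of macrophages at the brain's borders. The members were thus chosen by their measured UMIs of these genes. The rule was met by 104 of 11267 barcodes that passed the filter: 29 with sham + PBS, 51 with NMOSD + control peptide and 24 with NMOSD + APOE130-149. The files hold 12155 barcodes in all.

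Classical monocytes of the mouse carry the surface protein Ly6C and the chemokine receptor CCR2, which draws them out of the bone marrow and into inflamed tissue along gradients of CCL2 and related chemokines. In tissue they can turn into macrophages or into cells with features of dendritic cells, losing Ly6C while taking on MHC class II or complement C1q. In a healthy brain they are rare within the tissue and lie mostly in vessels, meninges and choroid plexus, whereas in inflammation of the central nervous system they enter it.

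With 1 library per group no difference between groups could be tested over replicates. Brackets hold 95% intervals for counting error alone: exact binomial for shares, exact Poisson for levels and exact conditional for ratios. They cover neither the spread between mice nor that between library preparations, and UMIs from the same cell are not independent of each other. Values are given in the order sham + PBS, NMOSD + control peptide, NMOSD + APOE130-149 throughout, and a level is the members' summed UMIs of a gene as CPM of all their UMIs in that library. The members' UMIs came to 379511, 684268 and 381494, with medians of 14393, 13093 and 16164 UMIs per cell, beside 7124, 7848 and 9991 over all cells that passed the filter. A count of 0 allows up to 3 UMIs, or 7.90, 4.38 and 7.86 CPM. Between 0 and 9 barcodes were shared by any pair of libraries, and none of the shared barcodes belonged to a member. Doublets were kept, and cells with high UMI totals were left out as an alternative.

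The genes of the rule chose the members, so their levels are a description. Ccr2 (ENSMUSG00000049103, GRCm38 chromosome 9, 124101950 to 124113557, forward strand), the receptor of CCL2, stood at 1634, 1515 and 1518 CPM. Ly6c2 (ENSMUSG00000022584, chromosome 15, 75108158 to 75111970, reverse strand), which encodes Ly6C, stood at 1605, 1761 and 1397 CPM. Plac8 (ENSMUSG00000029322, chromosome 5, 100553725 to 100572245, reverse strand) was at 2927, 3231 and 2592 CPM, and Lyz2 (ENSMUSG00000069516, chromosome 10, 117277331 to 117282321, reverse strand), which encodes lysozyme, at 18302, 20830 and 18792 CPM. Each gene lay within a narrow range over the 3 libraries. Just inside the threshold of 3 UMIs of Ccr2, Ly6c2 and Plac8 were 3 cells, and 7 cells that met every other criterion had 2 UMIs and were outside. Likewise 7 members lay between 250 and 500 CPM of P2ry12, and 14 cells otherwise within the rule lay between 500 and 1000 CPM. No UMI of P2ry12 was found in 50 of the 104 members.

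Genes that the rule did not use set these cells far apart from microglia. Microglia are here the 8898 cells with at least 500 CPM of P2ry12 and no UMI of Ccr2, Ly6c2 or Plac8. Over all 3 libraries, the genes with the highest ratio of members to microglia were Gpr141, at 215 CPM against 0.234, and Napsa, an aspartic protease, at 581 CPM against 0.690. Next came Cd209a, a lectin of monocyte-derived dendritic cells, at 340 CPM against 0.444, and Ahnak, a large scaffold protein, at 1061 CPM against 1.75. F10, coagulation factor X, was at 188 CPM against 0.327, and Prtn3, a protease of granule-bearing myeloid precursors, at 113 CPM against 0.199. Gpr141 had a UMI in 77 of the 104 members, Napsa in 89, Ahnak in 93 and Cd209a in 24. Among the 15 leading genes were also Emb, Hopx, AI839979, Itgb7, Sirpb1c, S100a4, Olfm1 and Gda.

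Markers of microglia summed to 6097, 7279 and 5754 CPM in the members, against 68308, 73337 and 72740 CPM in microglia, and markers of border-associated macrophages, partly limited by the rule, to 1265, 1200 and 1282 CPM. Markers of several other cell types were low. Of 10 T-cell markers, 9 were at 0 in each library, the rule itself excluding cells with Cd3 genes, and the summed level of the list was 5.27, 7.31 and 2.62 CPM. Platelet markers summed to 0, 1.46 and 0 CPM, eosinophil markers to 5.27, 0 and 2.62 CPM, and neuron markers to 7.90, 7.31 and 10.5 CPM. Neutrophil markers, limited by the rule, summed to 256, 649 and 548 CPM in the members, against 400893, 387657 and 408641 CPM in neutrophils (cells under 500 CPM of P2ry12 with at least 1% of UMIs from S100a8 and S100a9). Microglial RNA was present in each library: Tmem119, which is specific to microglia in brain, reached 4.24%, 5.38% and 2.84% of its level in microglia, C1qa 4.77%, 10.4% and 4.10%, and Cst3, which macrophages also express, 11.3%, 11.9% and 9.67%. Ttr, the transthyretin of choroid plexus, had no UMI in sham members and stood at 54.1 and 23.6 CPM in the members of both NMOSD libraries. In microglia Ttr was at 0.957, 295 and 317 CPM. The part of such RNA from other cells in the results was not tested.

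Apoe (ENSMUSG00000002985, chromosome 7, 19696109 to 19699188, reverse strand), the gene knocked out in these mice, stood at 393 [332 to 461], 205 [172 to 241] and 446 [381 to 518] CPM in the members. The deleted part of the gene is not named, and reads from elsewhere in the gene would check nothing, so the genotype was not tested by these levels.

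Clustering of the members alone, without the rule's genes and without mitochondrially encoded and ribosomal genes, gave 7 groups of 11 to 18 cells. The groups are called by number and by their leading genes, which define them and are therefore descriptions. Each group held cells of all 3 libraries. The numbers of cells were 3, 10 and 5 in group 1, 3, 12 and 2 in group 2, 7, 4 and 5 in group 3, and 5, 7 and 4 in group 4. They were 2, 10 and 3 in group 5, 6, 4 and 1 in group 6, and 3, 4 and 4 in group 7. These counts are given only to account for the cells, since the groups were formed from genes that differ between the libraries.

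Group 4, with 16 cells, combined genes of classical monocytes. It had the highest level of Lyz2 of the 7 groups, 39655 CPM, with Ly6c2 at 2897 CPM and Ccr2 at 2065 CPM. Hp (haptoglobin) was at 1376 CPM against 410 in the other members, F13a1, a coagulation factor made by monocytes, at 1371 CPM, and Fn1 (fibronectin) at 1731 CPM. Cd177, an adhesion protein of neutrophils and some monocytes, was 5.28-fold above the other members. Among its leading genes were also Nr4a1 at 138 CPM against 19.9 and Klf2 at 635 CPM against 167, transcription factors linked to the turn from Ly6C-high to Ly6C-low monocytes. The MHC class II genes were nearly silent, with H2-Aa at 4.18 CPM and no UMI of H2-Eb1.

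Group 2, with 17 cells, was led by cell cycle genes. At least 3 UMIs of Mki67 and Top2a were found in 11 of the 17 cells, and 4 had none of either. Its leading genes were Kif11, a mitotic motor, Pclaf, a PCNA-binding protein, Top2a and Cenpe, and Mki67 stood at 733 CPM. Ly6c2 was at 3031 CPM, the highest of the 7 groups, and Chil3, a chitinase-like protein of young monocytes, at 1109 CPM. Prtn3 was at 329 CPM and Elane at 95.3 CPM, both granule proteases of myeloid precursors in bone marrow. The median of 18454 UMIs per cell was also the highest of the groups.

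Group 3, with 16 cells, went against the name monocyte. It combined Cd209a at 1540 CPM, against 75.2 in the other members, with Flt3, the growth factor receptor of dendritic cells and their precursors, at 164 CPM against 12.7, and Clec10a, a lectin of dendritic cells and macrophages, at 883 CPM against 60.0. Cd7 was at 264 CPM and had no UMI in the other members. Cd74 stood at 18977 CPM, Ly6c2 at only 68.8 CPM and Lyz2 at 948 CPM, far under the other groups. These cells met the rule through Ccr2 (879 CPM) and Plac8 (1341 CPM), and 3 of the 10 genes leading the group are markers of conventional dendritic cells. Levels over all members therefore include cells with dendritic cell genes. Each comparison between libraries was repeated without the cells that had a UMI of Flt3, Zbtb46, Xcr1, Clec9a, Cd209a or Ccr7, which left 18, 38 and 17 members.

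Group 1, with 18 cells, carried the complement genes C1qa, C1qb and C1qc at 4080, 3662 and 2286 CPM, against 270, 280 and 173 CPM in the other members. MHC class II was at its highest here, with Cd74, the invariant chain, at 21315 CPM and H2-Ab1 at 9268 CPM, and Ly6c2 was at 535 CPM. Microglial genes were also highest in this group, P2ry12 at 187 CPM and Tmem119 at 161 CPM, and the median of 8015 UMIs per cell was the lowest of the groups. The part of RNA from microglia in this group was not tested. Spp1 (osteopontin), Ccl24 and Lyz1 lead it through few cells: 1 cell held 75.7% of the Spp1 UMIs of the group, and all UMIs of Ccl24 and Lyz1 lay in 1 cell each.

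Group 7, with 11 cells, had Apoe at 2264 CPM against 122 in the other members, Apoc2, another apolipoprotein gene, at 1401 CPM against 117, and Tgfbi, a matrix protein of macrophages, at 2483 CPM against 531. Arg1, the arginase of alternatively activated macrophages, was at 901 CPM against 15.2, with 79.0% of its UMIs in 1 cell. Group 6, also with 11 cells, was led by Osm (oncostatin M) at 223 CPM against 29.5, Thbs1 (thrombospondin) at 313 CPM against 55.1, and Il1b, which encodes the cytokine interleukin-1 beta, at 610 CPM against 162. Il1b was also at 589 CPM in group 5 and Thbs1 at 220 CPM in group 7, so neither was particular to group 6. In group 6, 1 cell each held 37.0% of the Osm, 47.4% of the Thbs1 and 44.6% of the Il1b UMIs.

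Group 5, with 15 cells, carried genes induced by interferons. Cxcl10 (ENSMUSG00000034855, chromosome 5, 92346638 to 92348889, reverse strand), the ligand of CXCR3 on activated T cells, was at 1622 CPM against 11.7 in the other members. Cxcl9, a ligand of the same receptor, was at 621 CPM against 30.3. Gbp5, a guanylate-binding protein, was at 336 CPM against 24.9, Iigp1, an immunity-related GTPase, at 437 CPM against 21.7, and Socs1, an inhibitor of interferon signalling, at 342 CPM against 19.4. Plac8 was at 6014 CPM, the highest of the groups. The levels of these and other genes in the 7 groups are drawn in the heat map of cell groups.

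**Figure D1:**
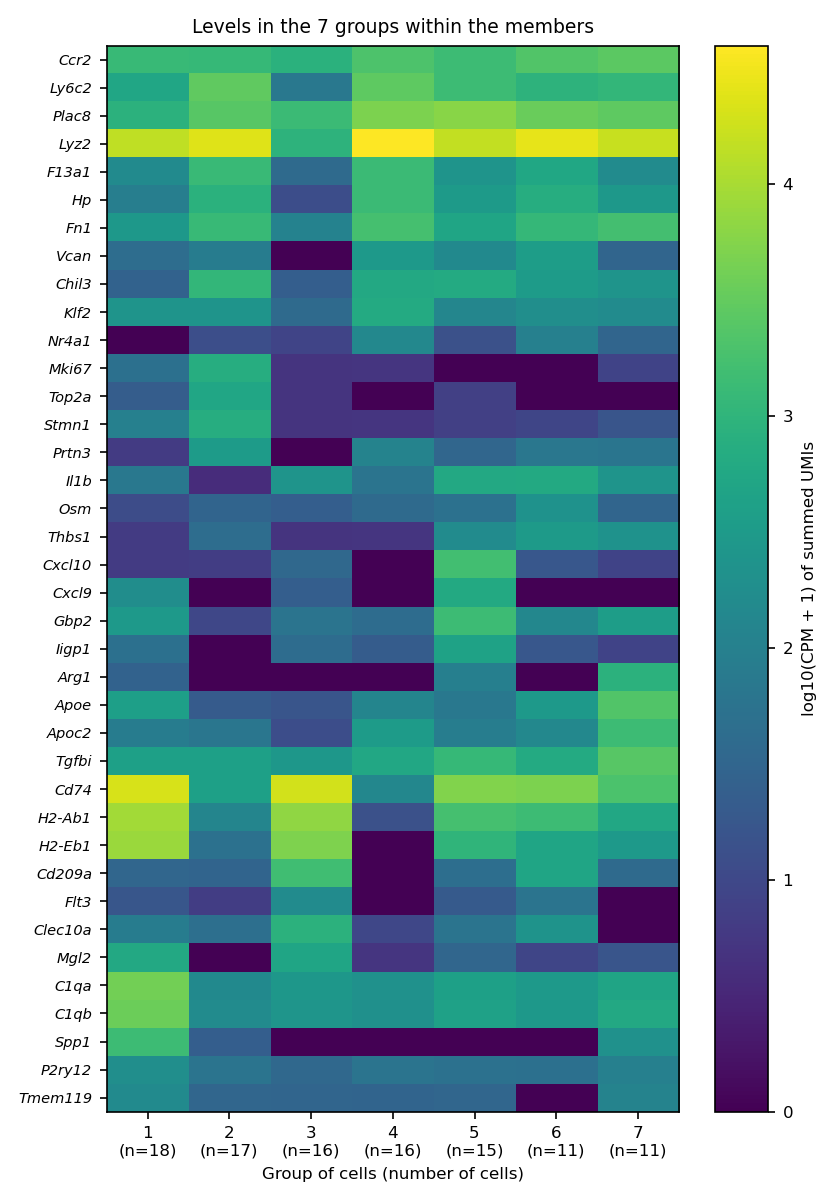
Levels of 38 genes (rows) in the 7 groups of cells within the members (columns, with the number of cells), as log10(CPM + 1) of the summed UMIs. MHC class II genes are high in groups 1 and 3, Cxcl10 in group 5 and Mki67 in group 2, while Ly6c2 and Lyz2 are low in group 3.

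Because groups 5, 1 and 3 each turn on genes with well-known promoter elements, the promoters of 5 such genes are shown, 250 bases up to the start of the transcript, 5′ to 3′ on the gene's strand, from RefSeq on GRCm38.p6. In the promoters of interferon-induced genes, capitals mark the interferon-stimulated response element, searched on both strands as GAAA, any 2 bases and GAAA, which STAT and IRF factors bind. In the MHC class II promoters they mark the Y box CTGATTGG, searched likewise, which the factor NF-Y binds. Overlapping matches were kept.
Cxcl10, chr5:92348890-92349139, reverse strand: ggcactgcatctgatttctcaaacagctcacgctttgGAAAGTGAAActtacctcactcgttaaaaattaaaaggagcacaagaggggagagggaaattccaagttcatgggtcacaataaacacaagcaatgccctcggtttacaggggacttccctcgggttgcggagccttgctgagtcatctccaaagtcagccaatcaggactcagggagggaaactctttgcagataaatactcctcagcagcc
Gbp2, chr3:142620413-142620662, forward strand: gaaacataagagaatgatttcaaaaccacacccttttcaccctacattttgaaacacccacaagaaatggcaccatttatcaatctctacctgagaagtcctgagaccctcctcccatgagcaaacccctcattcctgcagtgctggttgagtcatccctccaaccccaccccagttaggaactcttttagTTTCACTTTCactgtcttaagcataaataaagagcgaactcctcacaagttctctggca
Socs1, chr16:10785537-10785786, reverse strand: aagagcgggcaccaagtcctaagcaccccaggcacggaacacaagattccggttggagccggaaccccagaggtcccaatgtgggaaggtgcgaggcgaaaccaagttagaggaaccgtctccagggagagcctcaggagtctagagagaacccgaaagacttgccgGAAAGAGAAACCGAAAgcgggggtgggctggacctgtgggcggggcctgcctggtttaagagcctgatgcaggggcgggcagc
H2-Aa, chr17:34287824-34288073, reverse strand: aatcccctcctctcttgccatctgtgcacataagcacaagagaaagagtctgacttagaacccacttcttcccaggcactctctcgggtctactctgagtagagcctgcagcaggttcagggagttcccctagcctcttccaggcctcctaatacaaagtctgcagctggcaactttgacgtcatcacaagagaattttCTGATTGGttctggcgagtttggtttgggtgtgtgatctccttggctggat
H2-Eb1, chr17:34305617-34305866, forward strand: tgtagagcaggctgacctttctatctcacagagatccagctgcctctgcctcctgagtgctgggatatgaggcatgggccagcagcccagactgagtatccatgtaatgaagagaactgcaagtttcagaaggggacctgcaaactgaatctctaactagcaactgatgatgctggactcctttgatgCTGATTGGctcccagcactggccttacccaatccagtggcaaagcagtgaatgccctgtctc

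The element began 213 bases before the start in Cxcl10 and 59 before it in Gbp2, where it lay on the opposite strand. Socs1 held 2 overlapping matches, 83 and 77 bases before the start. The Y box lay 51 bases before the start of H2-Aa and 62 before that of H2-Eb1. Among all 32851 promoters of this length, 2.98% held the interferon element and 3.83% the Y box. Of the 12 genes leading group 5, 10 had a promoter entry, and 5 of these held the interferon element, namely Cxcl10, Socs1, Calhm6, Ifi205 and Gbp5. In the MHC class II list 3 of 7 promoters held the Y box. It was not particular to that list. Among genes leading the groups, 3 of 10 promoters in group 5 (Cxcl10, Cxcl9 and Calhm6) and 1 of 7 in group 1 (Spp1) held it, and none in the other groups. The Y box of Cxcl10 is not marked above. A match of letters is a description of the window and not a measured site of binding.

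Members made up 0.685% [0.460 to 0.983] of the cells that passed the filter with sham + PBS, 1.02% [0.759 to 1.34] with NMOSD + control peptide and 1.19% [0.761 to 1.76] with NMOSD + APOE130-149. The share was lowest in sham and highest with APOE130-149, but the 3 intervals overlap. Beside the microglia of the same library they came to 0.818%, 1.33% and 1.58%. As a share of the cells that were not microglia by rule they were 4.22%, 4.32% and 4.78%, which differ less. The CD45int gate can set these shares, since blood monocytes mostly lie above it, and the rule counts UMIs, whose median per cell differed between libraries. When every cell was thinned to 2000 UMIs, the shares were 0.688%, 0.923% and 0.695%. Without cells above 2 times the median UMIs of their library they were 0.370%, 0.998% and 1.1%, and with P2ry12 under 100 CPM 0.567%, 0.639% and 0.840%. After thinning, sham and APOE130-149 were nearly equal, from 22 and 13 cells, and APOE130-149 was not the highest. The cut on deep cells left 14 of 29, 40 of 51 and 17 of 24 members. It thus took a larger part of the sham members, so the low sham share under that setting is not read as support. Sham was lowest under the P2ry12 threshold as well.

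The chemokines Ccl5, Cxcl9 and Cxcl10, cell cycle genes, C1qa and C1qc stood higher in the members of NMOSD + control peptide than with sham + PBS. Cd209a, Il1b and Thbs1 stood lower. The cell cycle genes rested on few deeply sequenced cells. A gene was called when it was at least 2-fold apart and reached both 100 CPM and 20 UMIs in whichever library was higher. Of 1706 genes above that level, 49 (2.87%) were higher and 19 (1.11%) lower, and the median log2 ratio of all of them was -0.0024. Without the cells with dendritic cell genes, 51 were higher and 38 lower.

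Ccl5, a chemokine that attracts T cells and monocytes, stood at 5.27, 129 and 7.86 CPM, from 2, 88 and 3 UMIs. It was 24.4-fold [6.56 to 205] higher with the control peptide than in sham, and its 88 UMIs lay in 7 of 51 cells, 50% of them in 1 cell. Its level in microglia was 88.0, 84.8 and 59.1 CPM. Cxcl9 stood at 26.3, 177 and 15.7 CPM, 6.71-fold [3.53 to 14.3] higher with the control peptide, in 2, 11 and 2 cells. Cxcl10 stood at 50.1, 175 and 346 CPM, 3.50-fold [2.15 to 6.02] higher with the control peptide, in 2, 9 and 6 cells. In sham 94.7% of the Cxcl10 UMIs and 90.0% of the Cxcl9 UMIs came from 1 cell. When every cell was weighted equally, the log2 ratio of Cxcl9 was 0.43 in place of 2.75. The control peptide library thus had the highest level of Ccl5 and Cxcl9, whereas Cxcl10 was higher still with APOE130-149. Type I interferon genes as a list summed to 6182, 6543 and 5408 CPM. None of 16 above the level filter was called with the control peptide against sham. Of all genes 2.87% were higher and 1.11% lower there, so a count of 0 is near the background.

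Ccl24, a chemokine that attracts eosinophils, stood at 23.7, 253 and 0 CPM. It was 10.7-fold [5.49 to 23.7] higher with the control peptide than in sham, but 92.5% of its 173 UMIs lay in 1 cell of group 1. Without the top cell of each library it was 2.40-fold higher, and among members with P2ry12 under 100 CPM the log2 ratio was 0.11. Cxcl16, a chemokine of macrophages, stood at 60.6, 140 and 181 CPM and was 2.31-fold [1.46 to 3.82] higher. Of the 18 chemokines listed, 7 passed the level filter, and Ccl5, Ccl24, Cxcl9, Cxcl10 and Cxcl16 were called. Ccl5, Ccl24 and Cxcl9 passed only through the control peptide library, so a tally of those that passed is not read as a result. The list as a whole summed to 1700, 2078 and 1851 CPM, a narrower range. It holds Ccl6 at 819, 535 and 585 CPM and Ccl9 at 551, 379 and 448 CPM, which were both highest in sham. Ccl2, the ligand of CCR2, was at 58.0, 59.9 and 31.5 CPM and did not reach the level filter.

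Spp1 stood at 15.8, 137 and 532 CPM and Lpl, lipoprotein lipase, at 0, 130 and 62.9 CPM. Spp1 was 8.69-fold [3.85 to 24.3] higher with the control peptide, in 2 against 7 cells, and Lpl at least 16.5-fold higher, with a UMI in none of 29 sham cells and in 11 of 51. Both are genes of lipid-laden and tissue-repair macrophages, and microglia expressed them too: Lpl had 58.4, 104 and 110 CPM there. In the members 68.1% of the Spp1 UMIs and 68.5% of the Lpl UMIs of the control peptide library came from 1 cell.

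Among the cell cycle genes, Top2a, a topoisomerase of dividing cells, was at 47.4, 243 and 13.1 CPM and 5.11-fold [3.14 to 8.84] higher with the control peptide than in sham. Mki67 (ENSMUSG00000031004, chromosome 7, 135689784 to 135716361, reverse strand), which marks cells in cycle, was at 134, 303 and 21.0 CPM and 2.25-fold [1.65 to 3.12] higher. The proliferation list summed to 4221, 6983 and 2676 CPM, and Mki67, Top2a, Cenpf, Stmn1 and Tubb5 were called higher. Without members above 2 times the median UMIs, the log2 ratio of the summed list was -0.20 in place of 0.73. The linker histone gene Hist1h1b was at 31.6, 346 and 70.8 CPM, and its log2 ratio was 0.04 without those members. These levels rested on few cells. Cells with at least 3 UMIs of Mki67 and Top2a were 3 of 29 (10.3% [2.19 to 27.4]), 8 of 51 (15.7% [7.02 to 28.6]) and 1 of 24 (4.17% [0.105 to 21.1]), shares whose intervals overlap, against 1.19%, 2.92% and 3.28% of microglia. They held 96.1%, 97.1% and 100% of all Mki67 UMIs. Their median depths were 18454, 26904 and 22740 UMIs, above the 13476, 12853 and 15778 of the other members. Without members above 2 times the median UMIs Top2a was lower with the control peptide than in sham (log2 ratio -2.64). That setting left 29, 46 and 24 members, so it took cells from the control peptide library alone. Since the cells rich in Mki67 and Top2a were deep there, the choice of cells favours lower values of cell cycle genes in that library.

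C1qa stood at 464, 1119 and 419 CPM, C1qb at 561, 948 and 459 CPM and C1qc at 303, 636 and 249 CPM. C1qa was 2.41-fold [2.05 to 2.86] and C1qc 2.10-fold [1.7 to 2.60] higher with the control peptide than in sham, and C1qb 1.69-fold. The 3 genes encode the chains of C1q, which opens the classical complement pathway and is made in the brain mostly by microglia. In neutrophils, which make little of it, C1qa was at 448, 871 and 428 CPM, nearly the levels in the members and in the same order. Another microglial gene, Sparc, was at 65.9, 183 and 76.0 CPM in the members and 111, 205 and 129 CPM in neutrophils. C1qa was not even over the members, at 4080 CPM in group 1 and 270 CPM in the other members. The part of group 1 in these ratios was not tested. Among members with P2ry12 under 100 CPM the log2 ratio of the summed complement list was 0.25 in place of 0.87. Among genes of macrophage maturation, Cxcl16, C1qa and C1qc were called higher, and none was called lower.

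Cd209a (ENSMUSG00000031494, chromosome 8, 3743397 to 3748984, reverse strand) stood at 785, 120 and 294 CPM. It was 6.55-fold [5.12 to 8.47] lower with the control peptide than in sham, with a UMI in 11 of 29, 7 of 51 and 6 of 24 cells. In microglia, which lack the gene, it was found in 0.451%, 0.287% and 0.131% of cells, at medians of 7052, 7464 and 9511 UMIs. With every member thinned to 3000 UMIs it was found in 10 of 26, 7 of 50 and 3 of 23 cells. Reads of the near-identical Cd209d could be split with it. Conventional dendritic cell markers summed to 1336, 516 and 1056 CPM, so the sham members held the most and the control peptide members the least. Without the cells with dendritic cell genes, Casp6, otherwise 2.92-fold lower, was higher with the control peptide (log2 ratio 0.94), Il1b had a log2 ratio of -0.32 in place of -1.15, and Plec -0.53 in place of -1.25.

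Il1b was at 237, 107 and 328 CPM, 2.22-fold [1.61 to 3.07] lower with the control peptide, in 12, 13 and 9 cells. Thbs1 was at 166, 68.7 and 2.62 CPM, 2.42-fold [1.63 to 3.60] lower, and Mefv, the pyrin of the inflammasome, at 140, 57.0 and 60.3 CPM, 2.45-fold [1.59 to 3.81] lower. Clec2d, a lectin that binds an inhibitory receptor of natural killer cells, stood at 232, 96.5 and 136 CPM, 2.40-fold [1.73 to 3.36] lower. Lyz1, a close copy of Lyz2 with which it can share reads, was at 177, 2.92 and 2.62 CPM, but its 67 sham UMIs came from 1 cell. S100a8, which the rule limits, was at 58.0, 295 and 152 CPM and 5.09-fold [3.27 to 8.31] higher with the control peptide. Its log2 ratio was 0.60 with equal cell weights and 0.97 without cells with at least 3 UMIs of Mki67 and Top2a, in place of 2.35. The overlapping antisense gene Il1bos could not be told apart from Il1b, since the use of strand in counting is not stated.

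**Figure D2:**
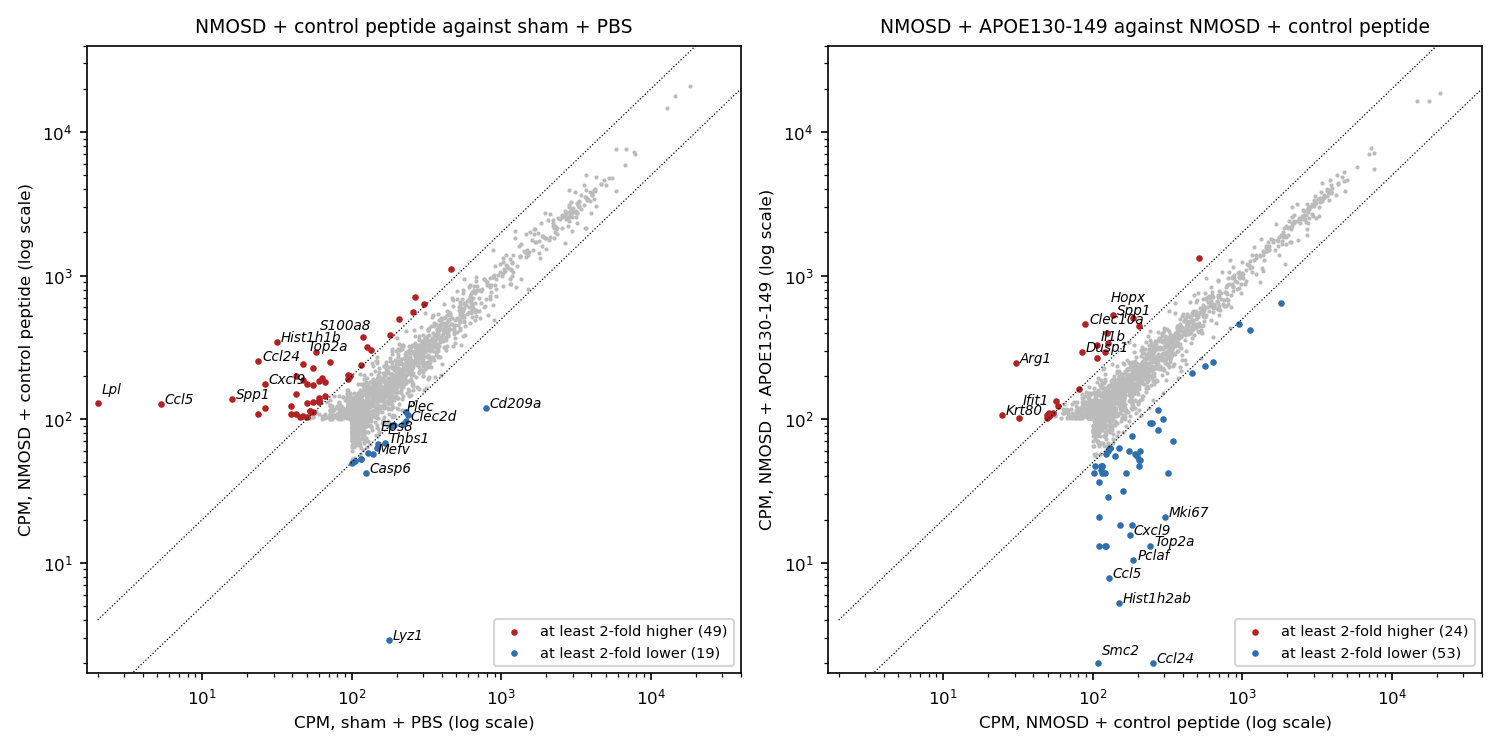
Levels of genes in the members (CPM, log axes), NMOSD + control peptide against sham + PBS on the left and NMOSD + APOE130-149 against NMOSD + control peptide on the right, each point a gene that passed the level filter of 100 CPM and 20 UMIs. Coloured genes lie at least 2-fold apart (dotted lines), 49 higher and 19 lower on the left and 24 higher and 53 lower on the right, and genes at 0 are drawn at 2 CPM.

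In the members of NMOSD + APOE130-149, compared with NMOSD + control peptide, cell cycle genes, C1q and the chemokines Ccl5 and Cxcl9 stood lower. Hopx, Fos, Dusp1, Il1b, Cd209a and Clec10a stood higher. Of 1678 genes above the level filter, 24 (1.43%) were higher and 53 (3.16%) lower, with a median log2 ratio of 0.048 over all of them. Both this comparison and the former use the control peptide library, so a gene that was high there appears in both. Without the cells with dendritic cell genes, 44 were higher and 78 lower.

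Hopx (ENSMUSG00000059325, chromosome 5, 77086988 to 77115121, reverse strand), a small homeodomain protein that does not bind DNA itself, stood at 94.9, 124 and 401 CPM. It was 3.23-fold [2.46 to 4.26] higher with APOE130-149 than with the control peptide and 4.23-fold [2.92 to 6.26] higher than in sham. A UMI of Hopx was found in 12 of 29 (41.4%), 27 of 51 (52.9%) and 20 of 24 cells (83.3%), against 0.254%, 0.365% and 0.788% of microglia. After thinning to 3000 UMIs the shares were 23.1%, 32.0% and 56.5%. The cell with most UMIs held 22.9% of the total with APOE130-149, and without the top cell of each library the ratio was 2.86. Hopx thus differed through many cells. It is overlapped on the other strand by Hopxos.

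Fos (ENSMUSG00000021250, chromosome 12, 85473890 to 85477273, forward strand), an immediate early transcription factor, stood at 345, 513 and 1329 CPM. It was 2.59-fold [2.26 to 2.98] higher with APOE130-149 than with the control peptide, in 18, 41 and 18 cells. Dusp1, a phosphatase induced with it, was at 119, 84.8 and 294 CPM, 3.46-fold [2.50 to 4.84] higher. For both genes the APOE130-149 library stood above both others. Ergic1 overlaps Dusp1. Fos is known to be induced during tissue dissociation, and microglia of the same libraries had it at 84.7, 504 and 925 CPM. The immediate early list summed to 3942, 5239 and 6029 CPM in the members and to 2572, 10353 and 14756 CPM in microglia. Without cells with at least 3 UMIs of Mki67 and Top2a the log2 ratio of Fos was 0.92, under 2-fold. The part of cell handling in these levels was not tested. Of 15 immediate early genes above the level filter, 2 were higher with APOE130-149 (Fos and Dusp1) and Egr1 was lower, with a list median of 0.094 on the log2 scale, near the 0.048 of all genes. The list as a whole was thus not apart. Egr1 stood at 52.7, 114 and 47.2 CPM.

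Clec10a (ENSMUSG00000000318, chromosome 11, 70156197 to 70170834, forward strand) stood at 174, 89.1 and 459 CPM and was 5.15-fold [3.82 to 7.01] higher with APOE130-149 than with the control peptide, in 9, 17 and 12 cells. Its close copy Mgl2 was at 94.9, 127 and 341 CPM, 2.68-fold [2.03 to 3.56] higher, and Cd209a was 2.45-fold [1.83 to 3.30] higher. Ifitm1, an interferon-induced membrane protein, was at 245, 187 and 503 CPM, 2.69-fold [2.14 to 3.39] higher, with 53.1% of its UMIs in 1 cell. Without the cells that carry dendritic cell genes, which were picked by Cd209a among others, the log2 ratio of Clec10a was 0.89, that of Ifitm1 -0.09 and that of Mgl2 -1.70.

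Il1b was 3.07-fold [2.28 to 4.16] higher with APOE130-149 than with the control peptide, and the ratio without the top cell of each library was 2.88. Of its 125 UMIs with APOE130-149, 48, 29 and 28 lay in 1 cell each, so the level still rested on few cells. With every member thinned to 3000 UMIs, Il1b was found in 8 of 50 cells with the control peptide and 5 of 23 with APOE130-149. Krt80, a keratin, was at 73.8, 24.8 and 107 CPM, Cited2, a transcriptional co-regulator, at 129, 107 and 265 CPM, and Ifit1, an interferon-induced RNA-binding protein, at 36.9, 32.2 and 102 CPM in 6, 9 and 5 cells. Cited2 had a log2 ratio of 0.92 among members with P2ry12 under 100 CPM. For Il1b, Krt80 and Cited2 the control peptide library was the lowest of the 3. Arg1 and Spp1 were the genes that rested most on 1 cell. Arg1 stood at 63.2, 30.7 and 246 CPM, and all 94 of its UMIs with APOE130-149 came from 1 cell of group 7. Of the 203 Spp1 UMIs in that library, 202 came from 1 cell of group 1, and without the top cells the log2 ratio was -4.06. Of the 12 genes named as higher, 8 stayed at least 2-fold higher without the top cell of each library.

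Mki67 was 14.4-fold [7.19 to 33.9] lower with APOE130-149 than with the control peptide, Top2a 18.5-fold [7.77 to 57.8] and Pclaf 17.8-fold [6.80 to 66.5] lower. Smc2, a condensin subunit, was at 42.2, 108 and 0 CPM, at least 13.8-fold lower, and Cenpf, a kinetochore protein, at 39.5, 123 and 13.1 CPM, 9.37-fold lower. Top2a and Cenpf passed the level filter only through the control peptide library, so no count or median over the list is read here. The summed list had a log2 ratio of -1.38, and of -0.46 without members above 2 times the median UMIs. Cells with at least 3 UMIs of Mki67 and Top2a were 8 of 51 and 1 of 24, shares whose intervals overlap. Leaving them out gave -0.08, a value that the choice of cells by 2 genes of the list favours. Without deep members Top2a and Cenpf had log2 ratios of 0.78. The deep members all came from the control peptide library, so this choice of cells favours that direction too. With every member thinned to 3000 UMIs, 8 of 50 and 2 of 23 cells had a UMI of either gene.

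Ccl5 was 16.4-fold [5.42 to 80.8] lower with APOE130-149, from 88 against 3 UMIs, and Cxcl9 11.2-fold [5.02 to 31.2] lower. Iigp1 was at 26.3, 120 and 13.1 CPM, 9.14-fold lower, and Ccl24 at least 32.2-fold lower, with 173 UMIs against 0 but only 5 cells with a UMI. Cxcl10, a ligand of the same receptor as Cxcl9, was 1.97-fold [1.53 to 2.55] higher, just under the threshold, with 55.3% of its UMIs in 1 cell. C1qa was 2.67-fold [2.25 to 3.19], C1qc 2.55-fold [2.04 to 3.22] and C1qb 2.07-fold [1.75 to 2.46] lower, and in neutrophils C1qa was lower as well. Cd9, a tetraspanin, was at 148, 272 and 115 CPM and 2.36-fold lower. Irf7, the transcription factor that amplifies type I interferon, stood at 148, 247 and 94.4 CPM and was 2.62-fold [1.82 to 3.86] lower. Together with Phf11b it was lower among 17 type I interferon genes, of which Ifit1 was higher. Of all genes above the level filter, 3.16% were lower and 1.43% higher. The median of that list was -0.37 on the log2 scale, beside 0.048 for all genes. Its summed level had a log2 ratio of -0.27, and of -0.07 without the cells with dendritic cell genes.

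**Figure D3:**
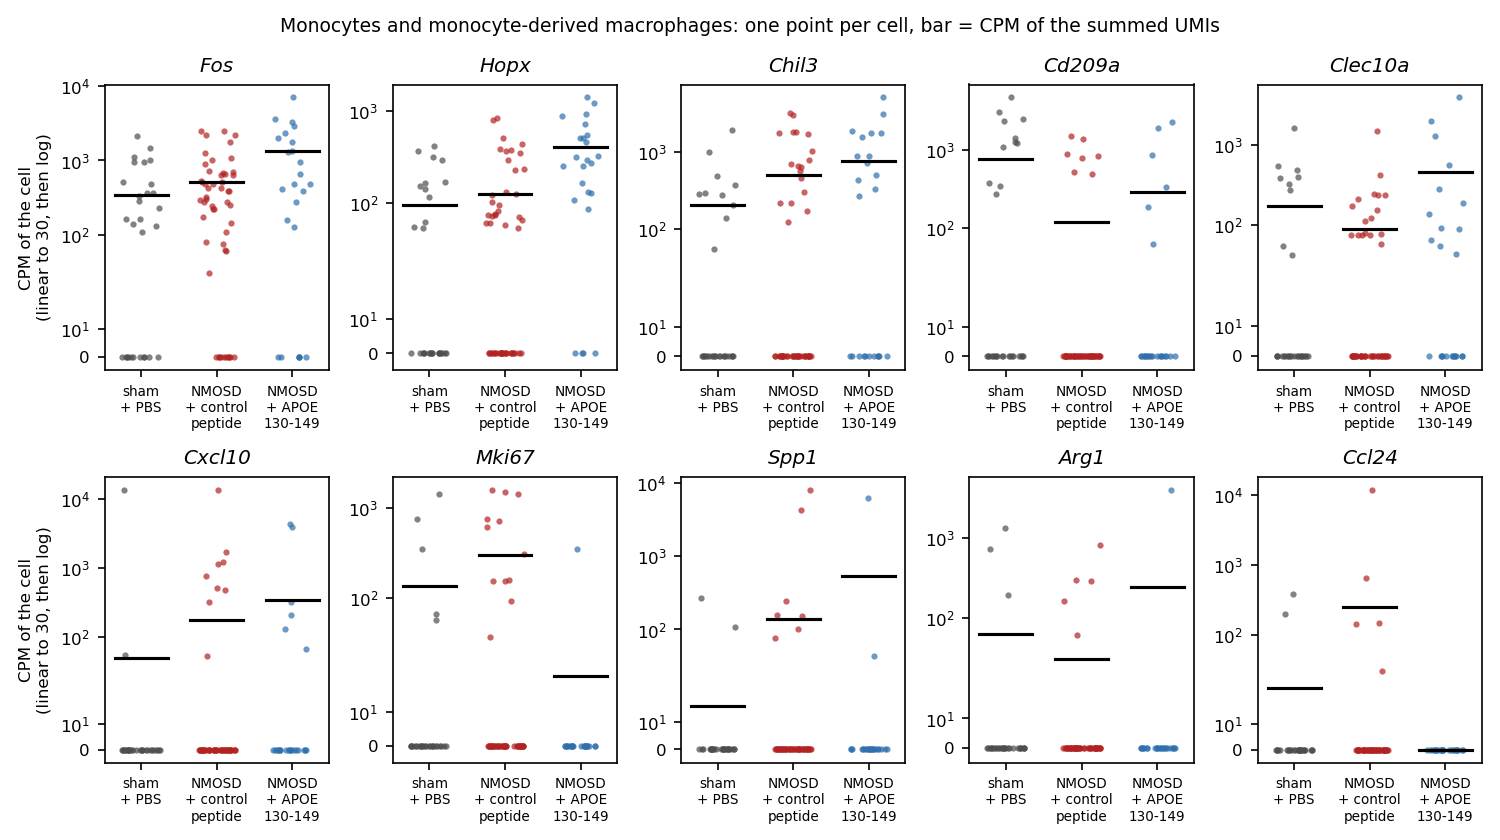
Level of 10 genes in each member (CPM of the cell, linear to 30 and logarithmic above), by library, with 29, 51 and 24 cells and a bar at the CPM of the library's summed UMIs. With NMOSD + APOE130-149, Hopx has a UMI in 20 of 24 cells and Fos in 18. The share of cells with Fos is no higher there than with the control peptide. The bars of Spp1 and Arg1 with NMOSD + APOE130-149 and of Ccl24 with NMOSD + control peptide stand on 1 cell each.

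The members of NMOSD + APOE130-149 compared with sham + PBS share a library with each of the other comparisons. Of 1726 genes above the level filter, 41 (2.38%) were higher and 47 (2.72%) lower, with a median log2 ratio of 0.024. Fos was 3.85-fold [3.17 to 4.70] higher. Chil3 (ENSMUSG00000040809, chromosome 3, 106147554 to 106167564, reverse strand), an early monocyte gene, stood at 208, 501 and 752 CPM and was 3.61-fold [2.81 to 4.70] higher than in sham, in 10, 18 and 13 cells. Chil3 was at 4193, 4872 and 3762 CPM in neutrophils, which express it strongly, and at 5.74, 5.79 and 3.77 CPM in microglia. Both NMOSD libraries stood above sham for Chil3, and with the control peptide it was 2.41-fold [1.88 to 3.12] higher. Mmp8, a collagenase of neutrophils and young monocytes, was at 39.5, 86.2 and 139 CPM, 3.51-fold [1.95 to 6.71] higher.

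AA467197, a nuclear-encoded mitochondrial protein gene that hosts a microRNA, was at 71.1, 250 and 312 CPM, 4.38-fold [2.87 to 6.93] higher with APOE130-149 than in sham. Its log2 ratio was 0.45 in place of 2.13 without the cells with dendritic cell genes. Cd300lf, an inhibitory receptor of myeloid cells that Rab37 overlaps on the other strand, was at 47.4, 80.4 and 163 CPM, 3.43-fold higher. Gatm, an enzyme of creatine synthesis, was at 50.1, 130 and 152 CPM, 3.04-fold higher, with a log2 ratio of 0.75 when cells were weighted equally. Cxcl10 was 6.91-fold [4.25 to 11.8] higher, but the log2 ratio was -0.30 when cells were weighted equally. The sham cell with 18 of the 19 UMIs of Cxcl10 had 1345 UMIs in all. Art3 overlaps Cxcl10. Nfkbia, the inhibitor of NF-kB, was at 140, 189 and 294 CPM, 2.10-fold [1.5 to 2.97] higher.

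Lower with APOE130-149 than in sham was Thbs1, with 63, 47 and 1 UMIs, a ratio of 63.3-fold [11 to 2541] that has 1 UMI in its denominator. A UMI of Thbs1 was found in 7 of 29, 15 of 51 and 1 of 24 cells. Hpgd, the enzyme that breaks down prostaglandins, was at 150, 77.5 and 34.1 CPM, 4.41-fold [2.38 to 8.78] lower, beside 410, 359 and 382 CPM in microglia. Hmgcs1, an enzyme of cholesterol synthesis, was at 105, 65.8 and 26.2 CPM, 4.02-fold [1.98 to 9.02] lower, and Ly6a, the stem cell antigen Sca-1, at 100, 81.8 and 31.5 CPM, with a log2 ratio of -0.36 when cells were weighted equally. For Thbs1, Hpgd and Hmgcs1 the control peptide library lay between the others. Mki67 was 6.41-fold [3.02 to 15.6] and Birc5, survivin, 6.17-fold [2.75 to 16.3] lower. Without the cells with at least 3 UMIs of Mki67 and Top2a, the log2 ratio of the proliferation list was 0.35 in place of -0.66.

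The genes by which monocytes enter tissue lay in a narrow range. Of 26 chemokine receptor and adhesion genes, 13 or 14 passed the level filter in each comparison and none was called, where 1.11% to 3.16% of all genes were called in a direction, so a count of 0 is near the background. The list summed to 4163, 3998 and 3984 CPM. Itga4, the integrin chain that binds VCAM-1, was at 269, 196 and 273 CPM, and Itgb2, the common chain of the leukocyte integrins, at 290, 273 and 307 CPM. Genes of classical monocytes summed to 19681, 18751 and 19628 CPM. Of 23 of them above the level filter with the control peptide against sham, Chil3 and Prtn3 were higher and Thbs1 lower. Prtn3 stood at 55.3, 174 and 60.3 CPM. F13a1, at 622, 699 and 616 CPM, and Hp, at 640, 517 and 595 CPM, were near each other in the 3 libraries.

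Antigen presentation through MHC class II was carried by some of the cells. Cd74 stood at 7660, 7273 and 7756 CPM, H2-Ab1 at 2661, 2806 and 3004 CPM and H2-Eb1 at 2240, 2128 and 2157 CPM. None of 7 genes was called in either comparison with the control peptide, while Ciita, the master activator of these genes, was at 161, 124 and 65.5 CPM and 2.45-fold [1.52 to 4.08] lower with APOE130-149 than in sham. A UMI of H2-Ab1 was found in 12 of 29, 32 of 51 and 14 of 24 members. The near-equal sums of 16529, 15935 and 17127 CPM did not hold for cells without dendritic cell genes. There the log2 ratio of the list was 0.83 for the control peptide against sham and -2.49 for APOE130-149 against the control peptide. Among members with P2ry12 under 100 CPM these log2 ratios were -0.50 and 1.08, the opposite directions. The direction thus depended on which cells were kept, and no difference of the list between libraries is read here. MHC class I genes summed to 7773, 9302 and 7528 CPM, with none of 9 called in any comparison. Over all genes 1.11% to 3.16% were called in a direction, so a count of 0 among 7 or 9 genes is near the background.

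Of the other lists, Fc and complement receptors summed to 7610, 7889 and 7659 CPM. Only Fcgr4, the activating Fc receptor of Ly6C-low monocytes, was called, at 60.6, 134 and 86.5 CPM and 2.22-fold [1.39 to 3.67] higher with the control peptide than in sham. Lysosomal genes summed to 13591, 14955 and 13948 CPM with none of 20 called in any comparison, and glycolysis and hypoxia genes to 3823, 3813 and 4613 CPM with none of 11 called. Cytokine genes summed to 1744, 1676 and 1769 CPM. Besides Il1b and Nfkbia none of 7 was called, and Tnf had 1, 4 and 1 UMIs and Il1a 1, 3 and 1. Heat shock genes summed to 4308, 4861 and 4231 CPM with none of 7 called. Counts of 0 in these lists are near the background, since 1.11% to 3.16% of all genes were called in a direction. Among the receptors and partners of apolipoprotein E, Apoe itself was 2.18-fold [1.73 to 2.74] higher with APOE130-149 than with the control peptide, and Apoc2, at 358, 197 and 176 CPM, was 2.04-fold [1.51 to 2.78] lower than in sham. In group 7, 1 cell held 40.8% of the Apoe UMIs and 1 cell 51.9% of the Apoc2 UMIs. The summed list had a log2 ratio of 0.30 for APOE130-149 against the control peptide, and of -0.21 against sham. Without the top cell of each library for each gene these were -0.13 and -0.26. The ratios of Apoe and Apoc2 alone were not repeated in this way.

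**Figure D4:**
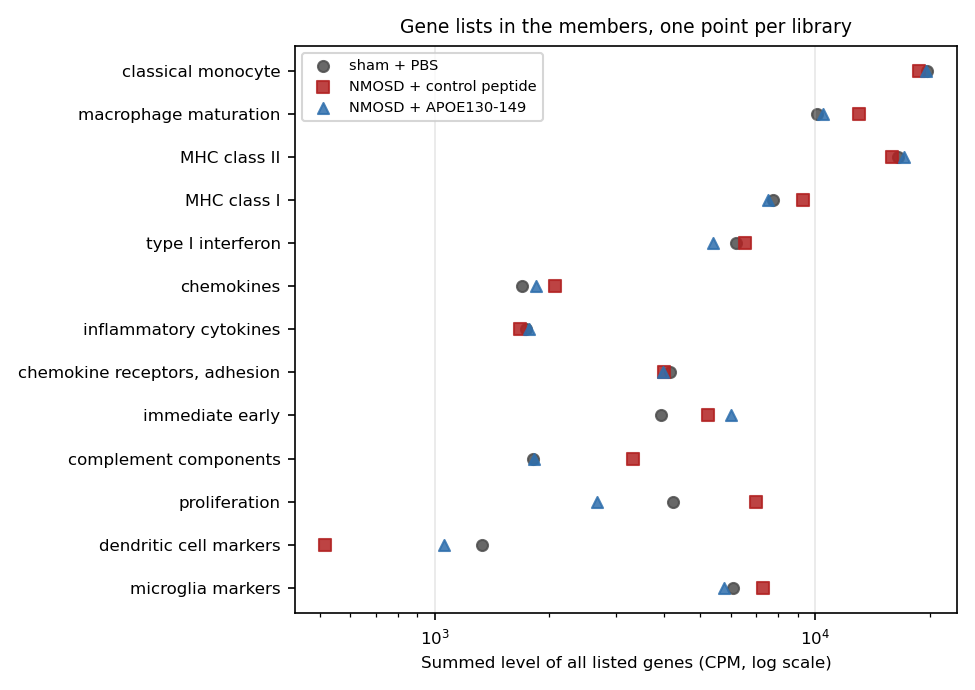
Summed level of all genes of each list in the members (CPM, log axis), 1 point per library. Of the 13 lists drawn, proliferation, complement and dendritic cell markers lie farthest apart between libraries, and chemokine receptors and adhesion lie within 3984 to 4163 CPM.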

How the data were processed

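The libraries were made with a 10x 3′ kit, per the labels' protocols. The deposited matrices hold raw UMI counts per gene and barcode. The file headers name cellranger 7.0.1, whereas the submitters' processing notes name Cell Ranger 5.0.1, Seurat 4.3.0 and mm10. Whether introns or strand entered the counting is not given in the sources used here.

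Members and gene lists were chosen with earlier results of these data known. Counts of the members were added up within a library and scaled to CPM, with 95% counting intervals (scipy 1.17.1). Named genes are the 12 with the largest ratio in each direction among called genes, beside listed genes and a few chosen after their values were seen. Groups came from Leiden clustering (scanpy 1.11.5, 1000 variable genes, 10 components, 10 neighbours, resolution 1). The steps were tested on simulated data. Alternatives covered scaling (TMM from edgeR 4.0.16, median of ratios), level filters, the rule's thresholds, cell weights and cells left out. Coordinates come from GENCODE on GRCm38 and promoters from RefSeq on GRCm38.p6. A few genes are not reported here.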

Additional observations from a re-analysis of the deposited data

How the results depend on the processing

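TMM and median-of-ratios scaling moved no named gene across 2-fold. Counts of genes at least 2-fold apart depended more on the filter and on single cells, and the cause of each shift below was not tested beyond the setting itself. With a filter of 50 CPM and 10 UMIs, 122 genes were higher and 94 lower with the control peptide than in sham, 81 and 125 with APOE130-149 than with the control peptide, and 111 and 176 with APOE130-149 than in sham. With a mean of at least 100 CPM over the libraries, chosen after seeing the data, these were 26 and 11, 13 and 24, and 25 and 22. With equal cell weights, 52 were lower in the first comparison, 39 higher in the second, and 65 higher and 101 lower in the third. Without the top cell of each library for each gene, 12 were lower in the first, 9 higher in the second, and 19 higher and 31 lower in the third. With P2ry12 under 100 CPM, 39 were lower in the first and 41 higher in the second. Without cells with dendritic cell genes these were 38 and 44. Without members above 2 times the median UMIs, a setting that removed cells of the control peptide library alone, 35 were lower in the second. Without cycling cells, also chosen after seeing the data, 31 were lower in the first. The shares of members that moved were 0.370% in sham without deep barcodes, 0.639% with the control peptide under the stricter P2ry12 threshold, and 0.695% with APOE130-149 after thinning.

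Among named genes, and among lists at least 2-fold apart, directions reversed for these log2 ratios. In the first comparison they were Top2a at -2.64, Hist1h4d at -0.0073 and Hist2h2ac at -0.31 without deep members, and Casp6 at 0.94 and the dendritic cell list at 0.14 without cells with dendritic cell genes. In the second, Arg1 was at -1.81 with the stricter P2ry12 threshold, Top2a and Cenpf at 0.78 without deep members, Arg1 at -0.89 and Spp1 at -4.06 without top cells. Spp1 was at -5.49, Ifitm1 at -0.093 and Mgl2 at -1.70 without cells with dendritic cell genes, and Pclaf at 0.87 without cycling cells. In the third, Cxcl10 was at -0.30 with equal weights, Arg1 at -0.20 with the stricter P2ry12 threshold and at -0.42 without top cells, and Spp1 at -2.61 without cells with dendritic cell genes. Without cycling cells H2afx was at 0.63, Cks2 at 2.55, Tubb4b at 0.93 and Stmn1 at 3.02. Lists less than 2-fold apart that also changed sign include proliferation, at -0.20 in the first comparison without deep members and 0.35 in the third without cycling cells, and dendritic cell markers in the third, at 0.26 without cells with such genes and 0.04 with the stricter P2ry12 threshold. No paired analysis was possible because each group is 1 library and no replicate numbers are shared.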
